A study of Mus musculus with 3 samples.

Results

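The receptors that steer B cells within and between lymphoid tissues were examined in lymphoma cells of the pBIC mouse. The set holds 9 genes. It comprises the chemokine receptors Cxcr3, Cxcr4, Cxcr5, Ccr6 and Ccr7, the oxysterol receptor Gpr183 (EBI2), and the sphingosine 1-phosphate (S1P) receptors S1pr1, S1pr3 and S1pr4. They were taken by symbol, and all 9 are among the 37646 genes listed in each count file. The set was chosen by a rule that used these tumours' read counts scaled to library total, and Cxcr3 was included because it varied between tumours. The levels and spreads of the receptors are therefore a description and not a test.

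Chemokine receptors are G protein-coupled receptors that sense small secreted proteins displayed on stromal cells and vessels. CXCR5 draws B cells into follicles towards CXCL13, CCR7 draws them to the T cell zone towards CCL19 and CCL21, and CXCR4, the receptor of CXCL12, holds germinal centre B cells in the dark zone and plasma cells in bone marrow. CXCR3 answers interferon-induced ligands, CXCL9 and CXCL10 among them. GPR183 follows oxysterols to the outer follicle, and S1PR1 lets lymphocytes leave along the rising S1P of blood and lymph. In mice S1PR1 and S1PR3 together place marginal zone B cells next to the splenic marginal sinus.

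A single group of 3 splenic lymphoma samples was analysed, 1 library for each, called tumours 1 to 3 in accession order. All come from C57BL/6 mice with the genotype p53F/F, Blimp1F/F, IKK2castopF/stopF and Cg1Cre/+, that is, floxed alleles of p53 and of Blimp1, a floxed stop in front of a constitutively active IKK2, and 1 Cre allele at the gamma 1 heavy-chain constant gene. That Cre is known to act in B cells that transcribe the gene, mainly those in germinal centre responses. The lymphoma is described in the labels as the activated B cell type of diffuse large B cell lymphoma (ABC-DLBCL), and the spleens came from moribund mice. B220+GFP+ live cells were sorted, and polyadenylated RNA was sequenced as single reads of 50 nt. The labels give no age, and they do not say whether the samples came from separate mice or whether the mice were related. Germinal centre B cells of immunised mice, named in the design as normal controls, were not analysed here, so no value below is a change against normal B cells. Libraries held 15022902 to 15141009 counts. No pair of libraries agreed within sampling noise (chi-square per degree of freedom of 67.6 to 74).

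All 8 B cell marker genes examined had at least 163 CPM in every tumour (read counts scaled to library size with edgeR's TMM factors), with summed levels of 4615, 2812 and 2771 CPM in tumours 1, 2 and 3. The sort therefore holds B cell RNA, as labelled. In bulk RNA, fewer cells of a type and less RNA per cell cannot be told apart. Markers of other cells were low. The 8 T cell genes summed to 19, 30.3 and 44.4 CPM, the 6 natural killer cell genes to 12.2, 13.1 and 5.23 CPM, and the 6 dendritic cell genes to 12.2, 19.7 and 15.2 CPM. The top gene of these lists was Cd3g for T cells with 3.95, 7.37 and 12.2 CPM, Prf1 for natural killer cells with 9.2, 9.32 and 1.9 CPM, and Flt3 for dendritic cells with 2.59, 11 and 9.55 CPM. The 7 neutrophil genes summed to 55.4, 20.3 and 3.14 CPM, and the 8 endothelial and stromal genes summed to 2.79 CPM at most. The 7 macrophage genes summed to 148, 144 and 147 CPM, nearly all of it from Cd68. Without Cd68 the other 6 summed to 8.94, 19.9 and 5.1 CPM. The natural killer cell gene Ncr1, the neutrophil gene Ly6g and the endothelial gene Kdr did not pass the floor of 3 counts in any tumour, and the dendritic cell gene Cd209a had no count.

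The 9 receptors share a short stretch at the inner end of a membrane helix that takes part in coupling to G proteins. Its codons are shown because they sort the set by ligand class. Each line below gives 45 bases of the coding strand, read 5′ to 3′ from the transcripts of GENCODE release M21 (GRCm38), with the codons of the stretch in capitals.
Cxcr3: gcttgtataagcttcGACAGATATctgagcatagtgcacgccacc
Cxcr4: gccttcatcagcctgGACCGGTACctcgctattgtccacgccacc
Cxcr5: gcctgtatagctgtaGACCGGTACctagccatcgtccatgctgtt
Ccr6: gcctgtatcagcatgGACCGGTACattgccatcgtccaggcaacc
Ccr7: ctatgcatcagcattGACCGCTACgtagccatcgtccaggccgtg
Gpr183: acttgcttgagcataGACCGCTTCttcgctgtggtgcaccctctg
S1pr1: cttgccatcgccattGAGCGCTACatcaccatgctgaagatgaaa
S1pr3: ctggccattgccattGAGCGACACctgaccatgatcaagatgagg
S1pr4: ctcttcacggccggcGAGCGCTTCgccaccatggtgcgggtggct

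All 5 chemokine receptors encode aspartate, arginine and tyrosine there, and Gpr183 encodes aspartate, arginine and phenylalanine. The 3 S1P receptors begin with glutamate in place of aspartate and differ in the last residue, which is tyrosine in S1pr1, histidine in S1pr3 and phenylalanine in S1pr4. The capitals are codons 147 to 149 of 367 in Cxcr3, and the coding sequences of the 9 genes run from 357 to 386 codons.

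Of the 9 receptors, 7 had at least 10 CPM in every tumour, S1pr3 passed that level in 1 tumour, and Ccr6 stayed near the limit of detection. The plot of receptor levels shows that 3 genes, Ccr7, Gpr183 and S1pr4, were nearly level between tumours, while Cxcr3, Cxcr4, Cxcr5, S1pr1 and S1pr3 differed by 2.75-fold to 29.2-fold between the highest and the lowest tumour. A difference of at least 2-fold was seen in 28.7% of the 11478 genes tested. The tumour that was highest was not the same one for each of these genes.

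**Figure D1:**
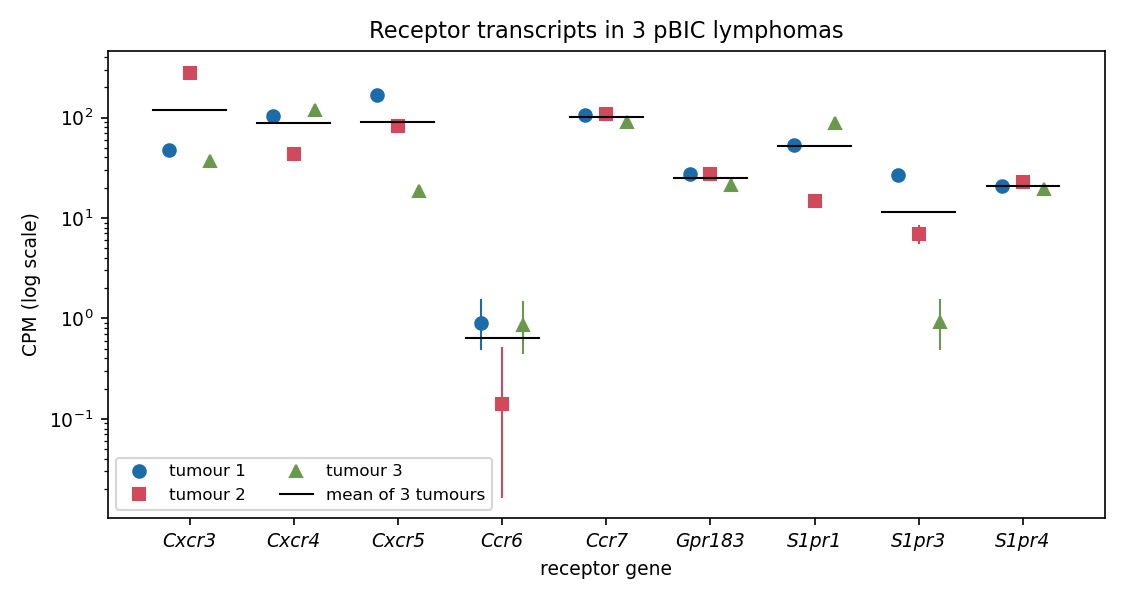
Levels of the 9 receptor genes in CPM on a log axis, 1 point for each tumour with its exact Poisson 95% interval (counting error only) and a bar at the mean of 3 tumours. Ccr7, Gpr183 and S1pr4 lie within 1.28-fold, Cxcr3 stands out at 276 CPM in tumour 2, and S1pr3 spans 0.915 to 26.7 CPM.

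Cxcr3 (ENSMUSG00000050232.6, mm10 chromosome X, 101731535 to 101734269, reverse strand) encodes the receptor that takes activated lymphocytes to sites of interferon gamma production. It had 729, 3964 and 565 counts in tumours 1, 2 and 3, which are 47.2 CPM (95% exact Poisson interval 43.9 to 50.8), 276 CPM (267 to 284) and 36.9 CPM (34 to 40.1). Tumour 2 was high, and tumours 1 and 3 were close to each other. The mean was 120 ± 135 CPM (SD, n = 3), so the SD exceeds the mean, and without tumour 2 the mean was 42.1 CPM. On the per-length scale Cxcr3 made up 55.3% of the summed TPM of the 9 receptors in tumour 2, against 11.8% in tumour 1 and 11.7% in tumour 3. TPM are counts per exon length, rescaled to the same total in each library without TMM factors.

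Ligands of CXCR3 were counted in the same libraries, and bulk RNA does not show which cells made them. Cxcl9 had 51.1, 106 and 5.62 CPM in tumours 1, 2 and 3, and was the only gene of the pathway lists that passed the test of variability between tumours described below (edgeR adjusted p = 0.0299), as 0.139% of all genes did. It did not pass with any 1 tumour left out, with library totals in place of TMM factors, with a prior variance that is not robust, or when genes needed only a mean count of 10. The pathway lists were chosen with earlier results of these data known, so the pass is a description. Cxcl10, a second ligand, had 24, 37 and 11 CPM, a spread that did not pass (edgeR adjusted p = 0.782). Tumour 2 was highest for Cxcr3 and both ligands. Tumours 1 and 3 were close in Cxcr3 and far apart in Cxcl9. Cxcl11 had 10, 28 and 2 counts. Tbx21, whose product T-bet is known to activate Cxcr3 in lymphocytes, had 8.23, 11.1 and 1.44 CPM (edgeR adjusted p = 0.678). Like Cxcr3, Tbx21 was highest in tumour 2 and lowest in tumour 3. Its level in tumour 1 lay nearer to tumour 2, whereas that of Cxcr3 lay nearer to tumour 3.

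The 5 genes most like Cxcr3 over the 3 tumours, by the root mean square difference of centred log2(CPM + 1) among 8475 genes with a mean of at least 10 CPM, were Hmox1, Lyz2, C3, Pmepa1 and Praf2. Their differences from Cxcr3 were 0.11, 0.26, 0.38, 0.44 and 0.45. Hmox1, the haem-degrading enzyme gene, had 7.45, 44.8 and 4.58 CPM in tumours 1, 2 and 3. The lysozyme gene Lyz2 had 7.58, 56.2 and 4.05 CPM. The complement gene C3 had 3.76, 32.1 and 1.44 CPM. With 3 tumours such a match rests on 1 high library. Lyz2 and C3 are expressed by myeloid cells, and the macrophage genes C1qa and C1qb, chosen after their values were seen, had 0.583, 7.1 and 1.24 CPM and 1.04, 7.17 and 0.588 CPM. Csf1r, a defining macrophage marker, had 2.59, 3.55 and 1.96 CPM, and Fcgr1 had 8, 3 and 2 counts. Of the other macrophage genes, Mertk had 15, 18 and 5 counts, highest in tumour 2. Adgre1, with 50, 9 and 13 counts, and Cd68, with 139, 124 and 142 CPM, were lowest in tumour 2. The part of macrophage RNA in the Cxcr3, Cxcl9 and Cxcl10 counts was not tested.

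The start regions of the 3 receptors with the widest spread among those that passed the filter on low counts and have an entry in the RefSeq promoter table (GRCm38.p6) are shown with the letters of some motifs in capitals. The table holds 6 of the 9 genes, and Cxcr5, Ccr7 and S1pr1 have no entry. Each line is the 250 bases before the transcript start, on the strand of the gene, with the start as RefSeq gives it. The window of Cxcr3 has 122 bases inside the gene as GENCODE M21 bounds it, and those of Cxcr4 and S1pr3 have none. The motifs searched on both strands were AGGTG, the core of T-box sites, CACCC, the core bound by KLF factors, and a loose form of NF-κB sites, GGG and CC with any 5 bases between them. Of 32851 promoter windows of that length, 46%, 52% and 45.8% hold them. The position of each line is, for Cxcr3, chrX:101734148-101734397, reverse strand, for Cxcr4, chr1:128592300-128592549, reverse strand, and for S1pr3, chr13:51408368-51408617, forward strand.
Cxcr3: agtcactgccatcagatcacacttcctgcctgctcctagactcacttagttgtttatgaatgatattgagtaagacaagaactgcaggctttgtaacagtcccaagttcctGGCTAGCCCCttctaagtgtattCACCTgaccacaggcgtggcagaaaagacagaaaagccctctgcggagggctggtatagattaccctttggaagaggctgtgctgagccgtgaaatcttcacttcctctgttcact
Cxcr4: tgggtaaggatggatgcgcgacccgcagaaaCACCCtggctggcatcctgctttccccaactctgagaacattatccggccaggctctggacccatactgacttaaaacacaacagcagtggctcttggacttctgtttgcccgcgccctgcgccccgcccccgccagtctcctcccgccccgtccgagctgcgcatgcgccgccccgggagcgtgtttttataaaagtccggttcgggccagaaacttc
S1pr3: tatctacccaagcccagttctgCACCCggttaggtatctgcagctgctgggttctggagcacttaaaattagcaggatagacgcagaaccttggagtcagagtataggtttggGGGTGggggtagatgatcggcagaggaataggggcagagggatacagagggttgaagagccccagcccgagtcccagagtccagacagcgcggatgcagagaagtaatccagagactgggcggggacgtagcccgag

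Cxcr3 has 1 T-box core, at 116 to 112 bases before the RefSeq start and inside the GENCODE gene, and 1 loose NF-κB match at 139 to 130 bases. Cxcr4 has 1 CACCC core at 219 to 215 bases, and S1pr3 has 2, at 228 to 224 and 137 to 133 bases, the second on the other strand. No 2 of these matches overlap. Of the other genes in the table, S1pr4 has 1 CACCC core and 1 T-box core, Gpr183 has no match, and Ccr6 has 2 T-box cores at one start and 2 overlapping NF-κB matches at its other start. Since each motif is in 45.8% to 52% of all windows, a match is a description and not a site.

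Cxcr5 (ENSMUSG00000047880.15, chromosome 9, 44511787 to 44561877, reverse strand), the follicle homing receptor, was counted 2616, 1190 and 285 times. Tumours 1, 2 and 3 thus had 169, 82.8 and 18.6 CPM, with exact Poisson intervals (counting error only) of 163 to 176, 78.1 to 87.6 and 16.5 to 20.9 CPM. Tumour 1 was high, tumour 3 was low, and the ratio between them was 9.1. A stretch of 110 nt, 3.3% of the exons of Cxcr5, is shared with exons of Bcl9l on the opposite strand, and the use of strand in counting is not given in the sources used here.

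Of the 8 B cell markers 4 had the same order, tumour 1 over tumour 2 over tumour 3, and 3 were lowest in tumour 2. Ms4a1 (CD20) had 923, 569 and 256 CPM in tumours 1, 2 and 3, and Cd79b, chosen after its values were seen, had 397, 344 and 213 CPM. Cd22 had 647, 321 and 661 CPM, Pax5 had 629, 262 and 335 CPM, and Blnk was level at 506, 521 and 487 CPM. These 3 were also chosen after their values were seen. Divided by the summed B cell markers of each tumour, Cxcr5 was 3.67%, 2.94% and 0.672% of that sum, and the ratio of tumour 1 to tumour 3 was 5.46. The summed neutrophil markers had the same order as Cxcr5, at 55.4, 20.3 and 3.14 CPM, with Ngp at 24, 5.91 and 0.981 CPM. The neutrophil gene Ly6g had 1, 2 and 0 counts. The part of neutrophils in the order of Cxcr5 was not tested.

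Cxcl13, the ligand of CXCR5, had 1 count in all 3 libraries together. Pou2f2 and Pou2af1, which encode the octamer factor OCT2 and its coactivator known to be needed for Cxcr5 transcription, had 421, 396 and 244 CPM and 414, 403 and 365 CPM. Neither passed the variability test (edgeR adjusted p = 0.997 and 0.999).

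Cxcr4 (ENSMUSG00000045382.6, chromosome 1, 128588199 to 128592293, reverse strand) had 104, 42.9 and 118 CPM in tumours 1, 2 and 3, with a mean of 88.2 ± 39.9 CPM (SD, n = 3). Tumour 2 was low, and tumours 1 and 3 differed little. Its ligand gene Cxcl12 had 1 count in the 3 libraries, and Ackr3, the scavenging receptor of CXCL12, had 58, 1 and 107 counts and was also lowest in tumour 2. Ackr3 was chosen after its values were seen.

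Ccr7 (ENSMUSG00000037944.8, chromosome 11, 99144196 to 99155077, reverse strand) was among the most even receptors. It had 107, 108 and 90.7 CPM in tumours 1, 2 and 3, with a mean of 102 ± 9.83 CPM (SD, n = 3) and a 1.19-fold range. Nfkb1 and Nfkb2, genes of NF-κB subunits known to act on Ccr7 in B cells, had 418, 408 and 360.1 CPM and 173, 178 and 159 CPM. The subunit genes Rela and Relb had 126, 119.7 and 168 CPM and 96, 119 and 168 CPM. Nfkb2, Rela and Relb were chosen after their values were seen. Ccr6 (ENSMUSG00000040899.14, chromosome 17, 8236043 to 8257141, forward strand), the CCL20 receptor of naive and memory B cells, had 14, 2 and 13 counts. It did not pass the filter on low counts, its count in tumour 2 lay under the floor of 3 counts, and no fold is given for it.

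The balance of zone receptors differed between tumours. On the length-corrected scale of log2(TPM + 1), the difference Cxcr5 minus Ccr7 was -0.09, -1.13 and -2.96 in tumours 1, 2 and 3. Follicle and T zone receptors were thus near parity in tumour 1, and Ccr7 exceeded Cxcr5 in tumours 2 and 3. The difference Cxcr4 minus Cxcr5 was 0.17, -0.06 and 3.47. The difference Cxcr3 minus Cxcr4 was -1.06, 2.73 and -1.60, and changed sign in tumour 2.

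**Figure D2:**
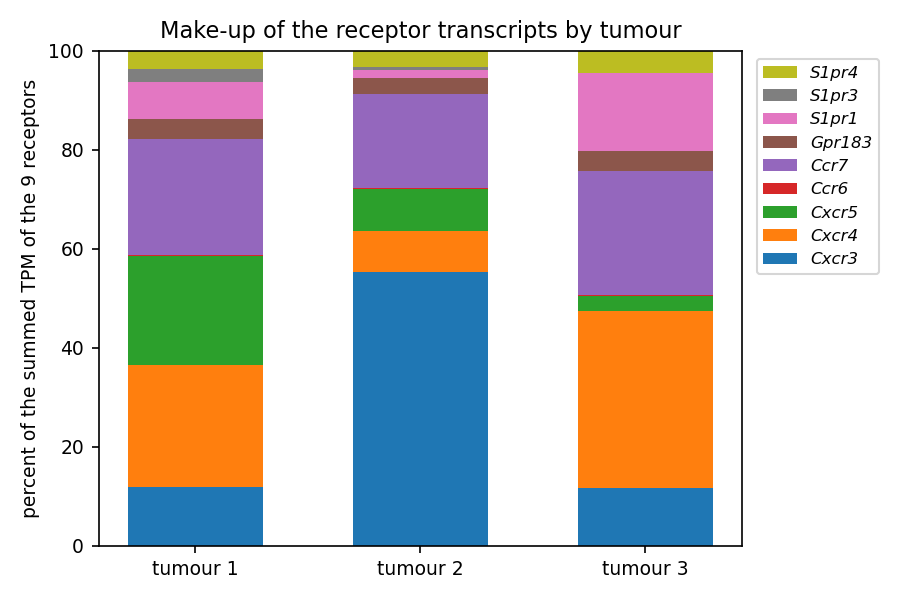
Percent of the summed TPM of the 9 receptors held by each receptor, 1 stacked bar for each tumour. Cxcr3 fills 55.3% of the bar of tumour 2, Cxcr5 fills 22% of the bar of tumour 1, and Cxcr4 and S1pr1 fill 35.7% and 15.8% of the bar of tumour 3.

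The summed level of the 9 receptors was 755, 788 and 553 TPM in tumours 1, 2 and 3. Its ratio of highest to lowest tumour was smaller than that of Cxcr3, Cxcr4, Cxcr5, S1pr1 or S1pr3. It was larger than that of Ccr7, Gpr183 or S1pr4. Receptors that are highest in different tumours even out in a sum. In tumour 1 Cxcr4, Ccr7 and Cxcr5 held 24.7%, 23.4% and 22% of that sum. In tumour 3 Cxcr4 and Ccr7 held 35.7% and 25%, S1pr1 held 15.8%, and Cxcr5 held 3.05%. Shares are tied to each other, since 1 receptor that is high lowers the share of all others.

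Gpr183 (ENSMUSG00000051212.8, chromosome 14, 121952551 to 121965195, reverse strand) guides activated B cells to the edge of the follicle and is known to be repressed by BCL6 in germinal centre B cells. Its levels of 27.1, 27.2 and 21.2 CPM in tumours 1, 2 and 3 lay within 1.28-fold of each other. The gene lies within the bounds of Ubac2 on the opposite strand, with no shared exon. Ch25h and Cyp7b1, whose products make the oxysterol ligand, had 1 count and no count over the 3 libraries. Bcl6, chosen after its values were seen, had 11.7, 5.57 and 4.77 CPM.

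The S1P receptors went 3 ways. S1pr1 (ENSMUSG00000045092.8, chromosome 3, 115710433 to 115715072, reverse strand), the exit receptor, had 827, 214 and 1351 counts in tumours 1, 2 and 3. These are 53.6, 14.9 and 88.3 CPM, with exact Poisson intervals (counting error only) of 50 to 57.4, 13 to 17 and 83.7 to 93.2 CPM. Tumour 2 was low by 5.93-fold against tumour 3. S1pr4 (ENSMUSG00000044199.6, chromosome 10, 81497747 to 81500132, reverse strand), an S1P receptor of lymphoid and myeloid cells, stood at 20.7, 23 and 19.2 CPM, within 1.2-fold.

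S1pr3 (ENSMUSG00000067586.4, chromosome 13, 51408639 to 51422797, forward strand), which in mice helps to place marginal zone B cells, had 412, 99 and 14 counts in tumours 1, 2 and 3. These are 26.7 CPM (24.2 to 29.4), 6.89 CPM (5.6 to 8.38) and 0.915 CPM (0.501 to 1.54). The ratio of tumour 1 to tumour 3 was 29.2, the widest of the 9 receptors, and 17.5 after division by the summed B cell markers. A stretch of 45 nt of its exons is shared with the noncoding gene Gm32834 on the opposite strand. S1pr3 is also expressed by endothelial cells. The 8 endothelial and stromal genes summed to 2.79, 0.835 and 0.719 CPM in tumours 1, 2 and 3, in the order of S1pr3. Their top gene Cdh5 had 25, 1 and 5 counts, highest in tumour 1, as S1pr3 was, but lowest in tumour 2. The 5 other endothelial and stromal genes with a count had 14 counts or fewer in each library. The neutrophil markers had the order of S1pr3, with a summed 55.4, 20.3 and 3.14 CPM and with Ngp at 24, 5.91 and 0.981 CPM. The defining neutrophil gene Ly6g had 1, 2 and 0 counts. The part of endothelial cells and of neutrophils in the S1pr3 counts was not tested.

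The difference S1pr1 minus S1pr3 in log2(TPM + 1) was 1.51, 1.46 and 5.77 in tumours 1, 2 and 3. The difference S1pr1 minus S1pr4 was 0.99, -0.93 and 1.81, so that S1pr4 exceeded S1pr1 only in tumour 2. S1pr2, the receptor that confines germinal centre B cells and is not in the set, had 4.34, 3.62 and 11.2 CPM, and S1pr1 minus S1pr2 was 4.39, 2.68 and 4.07. S1pr2 was chosen after its values were seen.

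Some genes known to act on S1pr1 or its product were counted beside it. Klf2, the transcription factor that activates S1pr1 in lymphocytes, had 221, 104 and 372 CPM in tumours 1, 2 and 3, the same order as S1pr1, and was chosen after its values were seen. Cd69, whose product binds S1PR1 and removes it from the surface, stood at 163, 30 and 162 CPM, a 5.42-fold spread. Neither passed the variability test, with an edgeR adjusted p of 0.497 for Klf2 and 0.139 for Cd69. Foxo1, a further regulator of Klf2 and Ccr7, had 40.4, 31.1 and 44.1 CPM and was chosen after its values were seen.

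Immediate early genes were also low in tumour 2. A list of 12 such genes, put together after the data were seen, summed to 2366, 715 and 2253 CPM in tumours 1, 2 and 3, and 12 of 12 were lowest in tumour 2, beside 34.5% of all genes tested. Of the 12 genes 2 passed the variability test, beside 0.139% of all genes. Fosb had 549.5, 45 and 428 CPM (edgeR adjusted p = 0.0337) and Egr1 had 264, 22.7 and 149 CPM (edgeR adjusted p = 0.0372), while Ier2 differed little at 29.9, 25.9 and 33.3 CPM (edgeR adjusted p = 0.997). Without tumour 1, and likewise without tumour 2, no gene passed that test, and 654 and 606 genes had an unadjusted p under 0.05. Genes of this class are known to rise while tissue is dissociated and sorted as well as on signalling in the tissue. Their part in the low values of tumour 2 was not tested.

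**Figure D3:**
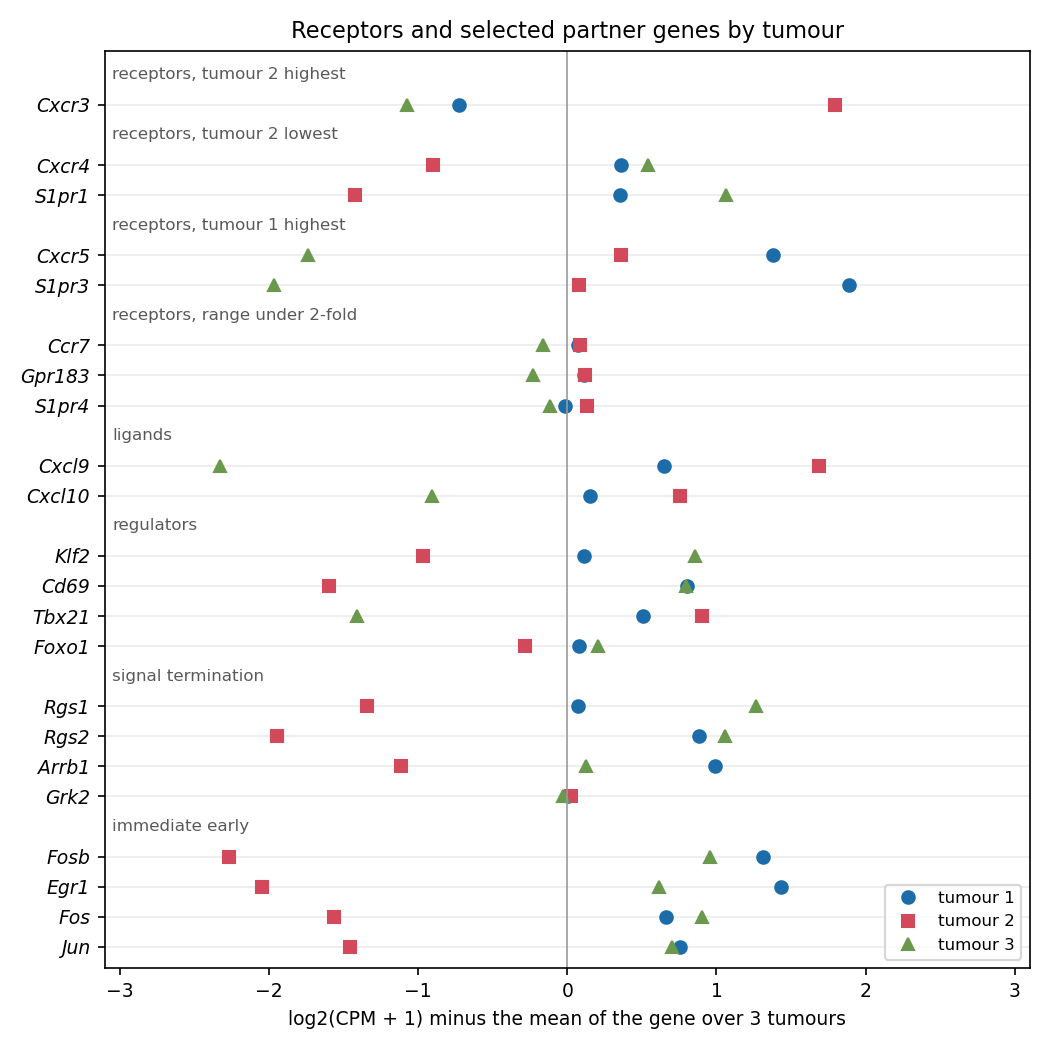
Difference of each gene in each tumour from its own mean over 3 tumours, in log2(CPM + 1), for 8 receptors and selected ligands, regulators, signal termination genes and immediate early genes. Tumour 2 (squares) lies to the right for Cxcr3, Cxcl9 and Cxcl10 and to the left for Cxcr4, S1pr1, Klf2, Cd69, Rgs1, Rgs2 and the immediate early genes.

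The tumour profiles of the receptors fell close together in a few pairs. By the root mean square difference of centred log2(CPM + 1), Ccr7 and Gpr183 differed by 0.04, Ccr7 and S1pr4 by 0.06, and Gpr183 and S1pr4 by 0.09. Cxcr5 and S1pr3, both highest in tumour 1 and lowest in tumour 3, differed by 0.36, and Cxcr4 and S1pr1, both low in tumour 2, differed by 0.43. Cxcr3 was far from every other receptor, at 1.18 from S1pr4 and 2.32 from S1pr1. These groupings were read from the values and rest on 3 libraries.

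On the scale of log2(TPM + 1), which corrects for gene length, the receptors ranked from Ccr7 (7.28 ± 0.18, SD, n = 3) through Cxcr3 (7.10 ± 1.47), Cxcr4 (7.08 ± 0.90), Cxcr5 (5.88 ± 1.62), S1pr1 (5.39 ± 1.37), S1pr4 (4.77 ± 0.11) and Gpr183 (4.75 ± 0.22) to S1pr3 (2.48 ± 1.83) and Ccr6 (0.83 ± 0.53). Of the 8 neighbour pairs in that order, 1 differed beyond its spread, Gpr183 minus S1pr3 at 2.27 ± 1.61, with a positive difference in 3 of 3 tumours. Ccr7 exceeded Cxcr3 in tumours 1 and 3 and lay 1.54 below it in tumour 2. The mean of Cxcr3 minus Cxcr4 was 0.02 ± 2.36, and that of S1pr4 minus Gpr183 was 0.02 ± 0.11. Among the 11478 genes that passed the filter on low counts, the mean level of Ccr7 stood at percentile 91.6, that of Cxcr3 at 90.1, that of S1pr4 at 55.6 and that of S1pr3 at 17.8.

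**Figure D4:**
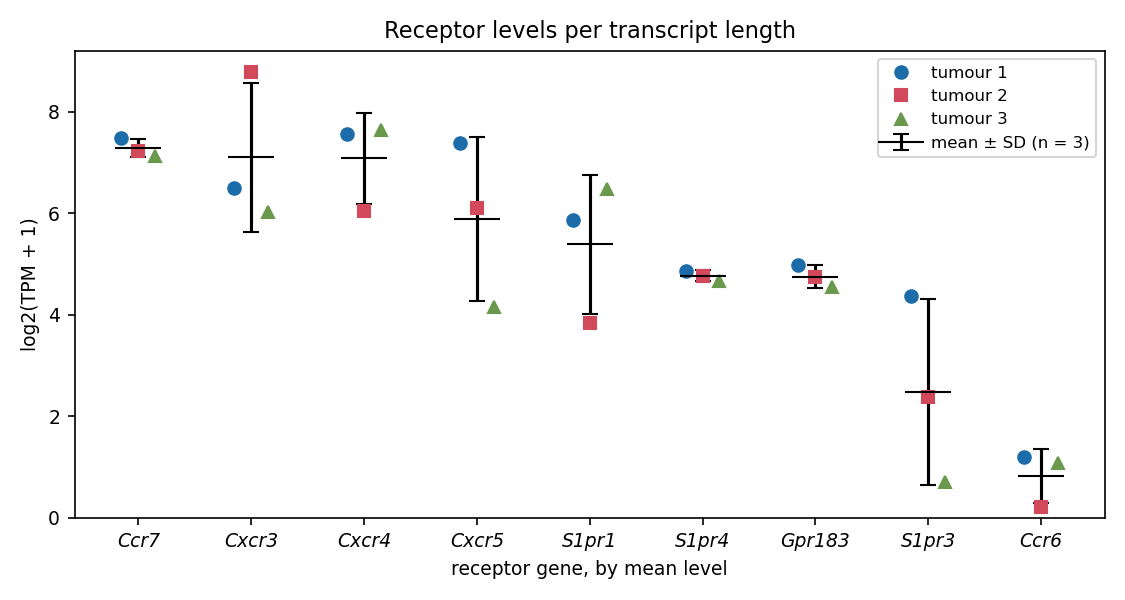
Receptor levels as log2(TPM + 1) in each tumour, ordered by the mean, with bars for the mean and SD over 3 tumours. The bars of Cxcr3, Cxcr5, S1pr1 and S1pr3 are wide (SD 1.37 to 1.83), and those of Ccr7, Gpr183 and S1pr4 are narrow (SD 0.11 to 0.22).

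The spread of the receptors was set beside that of all genes tested. Of the 9 receptors 8 passed the filter, which asks for a minimum count in every tumour. The median ratio of the highest to the lowest tumour was 4.34 for those 8 and 1.64 for all 11478 genes. A ratio of at least 2 was seen in 5 of the 8 receptors and in 28.7% of all genes, and a ratio of at least 4 in 4 receptors and in 5.31% of all genes. The variability test sets each gene's spread over the 3 tumours against that of genes of like abundance (edgeR quasi-likelihood, Benjamini-Hochberg adjusted). With 3 tumours the test can miss a gene that differs several-fold, so not passing does not show a small spread. In that test 1 receptor, Cxcr3, had an adjusted p under 0.05, beside 0.139% of all genes. The adjusted p was 0.0363 for Cxcr3, 0.0536 for Cxcr5, 0.0787 for S1pr3, 0.192 for S1pr1 and 0.735 for Cxcr4, and 0.997 for each of Ccr7, Gpr183 and S1pr4. With no filter beyond 1 count, Cxcr5, S1pr3 and S1pr1 also had an edgeR adjusted p under 0.05, of 0.000132, 0.000772 and 0.0164. Since the set was picked with these spreads known, nothing is read from these counts. Without tumour 2 the edgeR adjusted p of Cxcr3 was 0.988, without tumour 1 it was 0.121 and without tumour 3 it was 0.19.

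**Figure D5:**
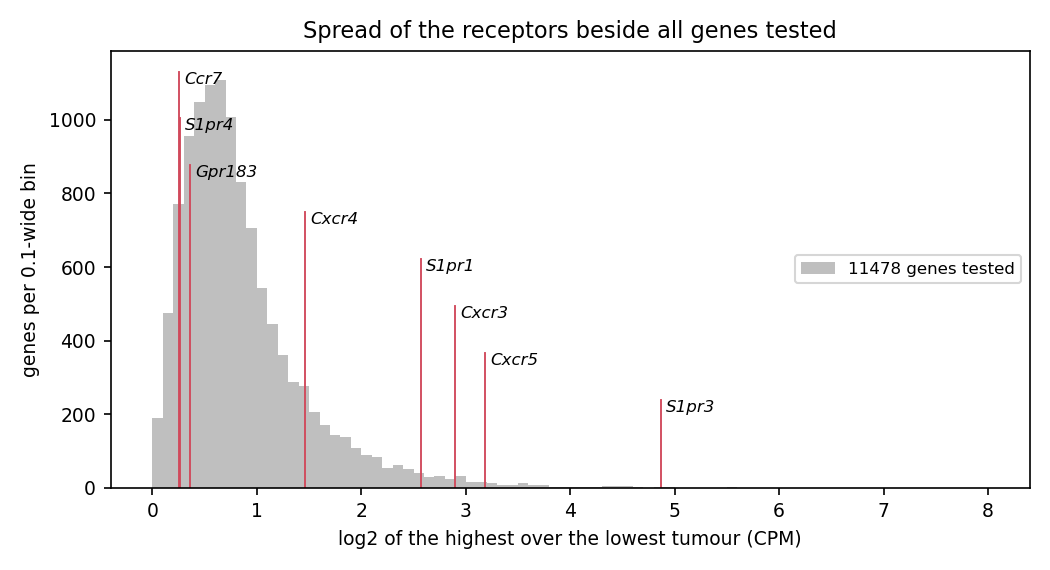
Histogram of the log2 ratio of the highest to the lowest tumour for the 11478 genes tested, with lines at the 8 receptors that passed the filter. Ccr7, S1pr4 and Gpr183 fall left of the peak, and S1pr1, Cxcr3, Cxcr5 and S1pr3 fall in the right tail.

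The rest of the guidance pathway was read from 6 lists of 99 genes, of which 95 are in the files and 70 passed the filter. In the variability test 1 of the 70, Cxcl9, passed, beside 0.139% of all genes, and 11 had an unadjusted p under 0.05, as 6.27% of all genes did. That share of all genes stands beside each list's count below. A ratio of highest to lowest tumour of at least 4 was seen in 9 of the 70 (12.9%), beside 5.31% of all genes. Since the lists were chosen with earlier results of these data known, these counts are a description.

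Genes that carry the signal inward had a median range near that of all genes. Of 24 genes of G proteins and motility 23 had at least 1 CPM in every tumour, and their median range was 1.41-fold beside 1.64-fold for all genes. Rac2, a small GTPase of blood cells, had 1061, 1336 and 1068 CPM in tumours 1, 2 and 3. Gnai2, which encodes the inhibitory G protein alpha subunit that chemokine receptors use in lymphocytes, had 508, 621 and 600.1 CPM. Dock2, the activator of Rac in lymphocyte migration, had 641, 408 and 366 CPM. Of the 23 genes tested 4 had a range of at least 2-fold, the widest being Tiam1 at 17.6, 10.1 and 4.71 CPM, named after its values were seen. None of the 23 passed the edgeR variability test, and 1 had an unadjusted p under 0.05. That gene was Pik3cg, with 74, 99.4 and 36.2 CPM, also named after its values were seen. The unadjusted edgeR p was 0.0458 for Pik3cg and 0.0995 for Tiam1.

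Of 15 genes that end the signal 11 reached 1 CPM in every tumour. The median range of the list was 1.68-fold, beside 1.64-fold for all genes. The receptor kinase genes Grk2 and Grk6 had 475, 481 and 464 CPM and 254, 283 and 253 CPM, and Rgs19, which speeds GTP hydrolysis by G proteins, had 112, 136 and 82.8 CPM. By contrast Rgs2 had 23.9, 2.5 and 27.1 CPM, Rgs1 had 12.8, 4.17 and 30.5 CPM, and the arrestin gene Arrb1 had 30.6, 6.33 and 16.3 CPM. These 3 were lowest in tumour 2, as Cxcr4 and S1pr1 were. Their edgeR adjusted p was 0.161, 0.397 and 0.618, so none of the 3 passed. Rgs13, a germinal centre gene, had 3, 2 and 1 counts. None of the 12 genes of this list that were tested passed the edgeR variability test, and 3 had an unadjusted p under 0.05. The same held for the 12 receptor regulators, Klf2, Cd69, Tbx21 and the octamer and NF-κB genes among them, with 3 at an unadjusted p under 0.05.

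Of the 28 other guidance receptors 14 reached 1 CPM in every tumour. Most counts fell on Ackr2, a scavenger of inflammatory chemokines, with 203, 228 and 144 CPM in tumours 1, 2 and 3, on the lipid and proton sensor gene Gpr132 with 78, 111 and 88.3 CPM, and on the lysophospholipid receptor gene P2ry10 with 39.1, 32.6 and 72 CPM. Ccr9, the gut homing receptor gene, had 13.6, 6.96 and 32.1 CPM, in the same order as S1pr1. None of the 14 genes tested passed the edgeR variability test, and 1 had an unadjusted p under 0.05.

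Of the 11 genes in the files that make, move or break down S1P and oxysterols, 5 reached 1 CPM in every tumour. Sgpl1, the S1P lyase gene, had 238, 86.2 and 216 CPM in tumours 1, 2 and 3 and was lowest in tumour 2, where S1pr1 was also lowest. Its edgeR adjusted p was 0.678. The S1P phosphatase gene Sgpp1 had 75, 75.8 and 111 CPM, and the sphingosine kinase gene Sphk2 had 44.3, 51.1 and 41.6 CPM. Sphk1, the other sphingosine kinase gene, had 2, 12 and 2 counts and was chosen after its values were seen. None of the 7 lipid ligand genes tested passed the edgeR variability test, and 1 had an unadjusted p under 0.05.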

How the data were processed

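For 3 sorted pBIC lymphoma samples the authors deposited raw counts of reads in genes. Per the submitters' processing notes, reads were handled with FastQC, STAR 2.5.2b and featureCounts 1.6.0 on mm10. The sources used here do not give settings, use of strand or the annotation release. CPM values come from these counts and TMM factors (1.023, 0.9595 and 1.018) computed in edgeR 4.0.16 under R 4.3.3. TPM used union exon lengths of GENCODE M21, available for all but 110 genes. Exons shared with a paralog or an antisense gene can shift counts. No molecular identifiers are named, so intervals and the floor of 3 counts (0.194 to 0.209 CPM) cover counting error only. Nothing states that the samples came from separate animals, so p-values measure the spread between these samples, which may be technical.

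An intercept-only edgeR quasi-likelihood model was fitted to the 11478 genes past filterByExpr. The residual deviance over the prior variance gave a one-sided F test (2 and 15.8 degrees of freedom), with a threshold of 0.05 after Benjamini-Hochberg adjustment over all genes. DESeq2 1.42.0 was used for alternatives. The receptors and the gene lists were chosen with earlier results of these data known. Named genes were the 9 receptors, the 3 genes with most counts in each list, genes past the threshold, genes with a mean of at least 5 CPM and a 4-fold range, the top gene of each marker list and the 5 genes most like Cxcr3. List genes named for counts at or near 0 were chosen after their values were seen. Ccl19, Ccl20, Ccl21a and Hsd3b7 were not analysed here. Sequences come from GENCODE M21 and RefSeq (GRCm38.p6).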

Additional observations from a re-analysis of the deposited data

How the results depend on the processing

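Receptor levels moved less than their SD with library totals and DESeq2 size factors. Among 3 tumours, leaving out 1 cannot move a mean by its SD, so that comparison shows nothing about stability. Means of 120 CPM for Cxcr3, 11.5 CPM for S1pr3, 90.3 CPM for Cxcr5 and 52.3 CPM for S1pr1 were 42.1 CPM without tumour 2, 3.9 CPM without tumour 1, 50.7 CPM without tumour 1 and 34.2 CPM without tumour 3. In all, 7 receptors had at least 10 CPM in every tumour throughout the scaling alternatives. The number of neighbour pairs apart beyond their spread in the length-corrected order was 1 with a pseudocount of 0.1 or the longest transcript, and 2 to 3 when 1 tumour was left out. Levels were also divided by the summed B cell markers, a setting added after the data were seen. The ratio of highest to lowest tumour was then 5.46 for Cxcr5, 17.5 for S1pr3 and 1.82 for S1pr4. It was 9.58 for Cxcr3, 6.02 for S1pr1, 2.79 for Cxcr4, 1.66 for Ccr7 and 1.65 for Gpr183.

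The count of genes past the edgeR variability test was 16 of 11478. It was 0 with library totals only, 0 when genes needed a mean count of 10 and 0 with a prior variance that is not robust, settings in which 711, 781 and 571 genes had an unadjusted p under 0.05. It was 164 with no filter beyond 1 count, and DESeq2 marked 41 genes as dispersion outliers. With 1 tumour left out it was 0 to 11, with 0 without tumour 1, 0 without tumour 2 and 11 without tumour 3. Among pathway genes the count was 1 (Cxcl9) in the main analysis, 0 with library totals, 0 with the mean count filter, 0 with the prior that is not robust, and 0 with each tumour left out. DESeq2 also marked Cxcl9. The count was 4 with no filter, where Ackr3, Cd69 and Rgs2 joined Cxcl9. The edgeR adjusted p of Cxcr3 ranged from 4.83e-06 to 0.988 over 8 alternatives, that of Cxcr5 from 0.000132 to 0.986, that of S1pr3 from 0.000772 to 0.824 and that of S1pr1 from 0.0164 to 0.987. The cause was not tested. No paired analysis was possible because all 3 samples form 1 group. At a depth of 15022902 to 15141009 counts, Ccr6, Cxcl12, Cxcl13, Ch25h and Cyp7b1 lie near or under the floor, and absence cannot be told from a low level.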
